A study of Mus musculus with 42 samples.

Results

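The SMARCA2/4 peaks of Ts65Dn;Brwd1+/- hippocampus were compared with those of Ts65Dn hippocampus, position by position. Each genotype had 1 list of peaks from chromatin immunoprecipitation and sequencing (ChIP-seq), and every peak on chromosomes 1 to 19 and X entered the comparison: 1250 of 1290 for Ts65Dn and 1659 of 1873 for Ts65Dn;Brwd1+/-. A peak was called shared when at least 1 bp of it overlapped a peak of the other list, and private otherwise. Of the 1250 Ts65Dn peaks, 256 were shared and 994 private. Of the 1659 Ts65Dn;Brwd1+/- peaks, 253 were shared and 1406 private. The shared peaks formed 246 sites.

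Ts65Dn mice carry an additional chromosome made of the distal part of mouse chromosome 16 and the proximal part of chromosome 17, and are used as a model of Down syndrome. Brwd1 lies in that segment. Both groups compared here carried the segmental trisomy. The Ts65Dn;Brwd1+/- group was in addition heterozygous for the repro5 mutant allele of Brwd1, inherited from Brwd1+/- fathers crossed to Ts65Dn mothers, so that the number of intact Brwd1 copies was that of euploid mice. Euploid mice, which carry neither change, served as a reference. All were males of 6 to 8 weeks on the same mixed DBA/2J x B6EiC3Sn/J background. Hippocampus of one side from 2 animals was pooled for each sample, and 4 immunoprecipitated and 4 input samples were labelled for each genotype. The tissue was whole hippocampus, so all its cell types contributed, and fewer cells of a type cannot be told apart from less binding per cell. Open chromatin was available from ATAC-seq of 3 samples per genotype of sorted neuronal nuclei.

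SMARCA2 (BRM) and SMARCA4 (BRG1) are the alternative ATPases of the BAF complex, the mammalian SWI/SNF remodeller, which slides and evicts nucleosomes at promoters and enhancers. In neurons the complex takes up neuron-specific subunits such as SS18L1 (CREST), and mutations in its subunits cause neurodevelopmental disorders. BRWD1 is a bromodomain and WD40-repeat protein that binds chromatin. The comparison asks where the remodeller was detected on trisomic chromatin with and without the additional dose of Brwd1.

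The value given with each peak is its fold enrichment, the immunoprecipitated signal over the input of the same genotype, with a q-value for the peak against that input. Because the replicate samples of a genotype had been combined into 1 list, no difference between the genotypes could be tested against the spread between samples, and no p-value between genotypes is given. Shares are given with Wilson 95% intervals, which cover counting error only. The lists hold no read counts, so the depth behind a peak is unknown.

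Some peaks that the results turn on are shown here by sequence, on the plus strand of mm10. The peak with the highest fold enrichment common to both lists lay on chromosome 6 in an intergenic stretch (chr6:105120278-105120345), in capitals below with 20 bases on each side. All of its bases are marked as repeat in the genome. The shared promoter site with the highest fold enrichment lay near Gm14897 on chromosome X (chrX:114858812-114858904). It held no repeat-masked base and no CpG, and 33.3% of its bases were G or C. The private peaks shown are a Ts65Dn peak in the pseudogene Gm3116 (chr1:102479440-102479489), with the lowest q-value among private Ts65Dn peaks at an annotated gene, and the Ts65Dn;Brwd1+/- private peak with the lowest q-value, near the start of chromosome 9 (chr9:3024763-3024814). As printed, with their flanks, the Ts65Dn-private peak and the chromosome 6 site have a run of 40 bases in common, on opposite strands, part of which lies in the flanks.
Shared site, chromosome 6: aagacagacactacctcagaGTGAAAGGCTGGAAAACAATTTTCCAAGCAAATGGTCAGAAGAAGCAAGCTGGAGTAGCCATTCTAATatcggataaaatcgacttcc
Shared site, Gm14897: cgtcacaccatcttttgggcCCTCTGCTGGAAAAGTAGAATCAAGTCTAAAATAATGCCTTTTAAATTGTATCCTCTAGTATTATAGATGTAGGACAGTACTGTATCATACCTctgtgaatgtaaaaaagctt
Ts65Dn-private, Gm3116: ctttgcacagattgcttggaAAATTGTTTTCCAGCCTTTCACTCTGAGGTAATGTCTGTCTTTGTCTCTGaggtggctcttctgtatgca
Ts65Dn;Brwd1+/- private, Gm10717: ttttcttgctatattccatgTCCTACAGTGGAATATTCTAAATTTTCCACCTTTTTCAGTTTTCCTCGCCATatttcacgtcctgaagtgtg

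About 1 in 5 Ts65Dn peaks was found again when the Brwd1 dose was lowered. The shared share was 20.5% of the Ts65Dn list (95% interval 18.3 to 22.8) and 15.3% of the Ts65Dn;Brwd1+/- list (13.6 to 17.1). The latter list was longer and held more significant peaks. In it, 917 peaks (55.3%) had a q-value under 0.05, against 396 (31.7%) in Ts65Dn. With both lists restricted to q under 0.05, 146 of the 396 Ts65Dn peaks were shared (36.9%, 32.3 to 41.7) and 147 of the 917 Ts65Dn;Brwd1+/- peaks (16.03%, 13.8 to 18.5). A further 18 and 55 peaks of that set met only a peak above the threshold in the other list. That left 232 Ts65Dn peaks (58.6%) and 715 Ts65Dn;Brwd1+/- peaks (77.97%) under 0.05 with no overlap at all.

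Sharing was concentrated among the strongest peaks. Of Ts65Dn peaks with a fold enrichment of 6 or more, 84 of 89 were shared (94.4%, 87.5 to 97.6), and of such peaks in the other list 91 of 106 (85.8%, 77.96 to 91.2). Between 3.5 and 4.5, the fullest class of both lists, 59 of 589 (10.0%) and 68 of 868 (7.83%) were. All of the 50 Ts65Dn peaks with the lowest q-values were shared, and 42 of the 50 lowest of Ts65Dn;Brwd1+/-. Among the 400 lowest of each list, 164 and 150 were. In both lists the share was higher below a fold enrichment of 3.5 (18.2% and 13.1%) than between 3.5 and 4.5. Median fold enrichment was 4.22 for shared and 3.70 for private Ts65Dn peaks, and 4.44 and 3.86 in Ts65Dn;Brwd1+/-.

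**Figure D1:**
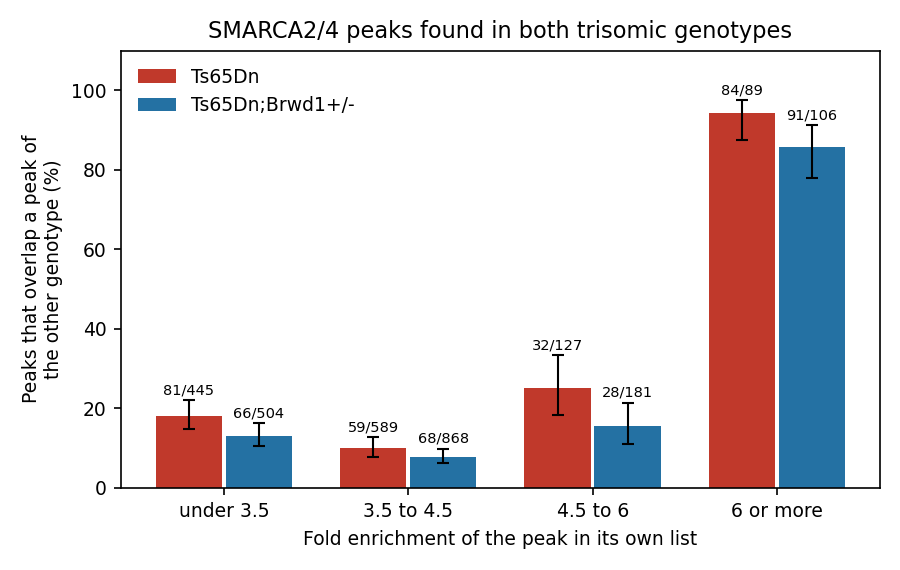
Share of SMARCA2/4 peaks (percent, vertical axis) that overlapped a peak of the other genotype, by class of fold enrichment over input (horizontal axis), for the Ts65Dn and the Ts65Dn;Brwd1+/- list. Bars start at 0 and the error bars are Wilson 95% intervals, covering counting error only. In the class of 6 or more the shares were 94.4% and 85.8%, and in the class of 3.5 to 4.5 they were 10.0% and 7.83%.

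Most private peaks were not near misses, though many were not significant in their own list. A q-value under 0.05 was found for 23.3% of Ts65Dn-private and 50.9% of Ts65Dn;Brwd1+/- private peaks. Of the 994 Ts65Dn-private peaks, 146 (14.7%) lay within 1000 bp of a Ts65Dn;Brwd1+/- peak, and of the 1406 Ts65Dn;Brwd1+/- private peaks 209 (14.9%) lay as close to a Ts65Dn peak. The median distance to the nearest peak of the other list was 144076 bp and 129204 bp. Within 10000 bp these were 23.8% and 27.7%. By annotated gene, 267 Ts65Dn-private peaks (26.9%) and 374 Ts65Dn;Brwd1+/- private peaks (26.6%) were annotated to a gene that also had a peak in the other list. Peaks were short, with a median length of 62 bp in Ts65Dn and 67 bp in Ts65Dn;Brwd1+/-, so neighbouring summits of one bound region can fail to overlap. At the promoter of Nfia, a transcription factor of the developing hippocampus, the private peaks were at chr4:97911061-97911120 in Ts65Dn and at chr4:97911124-97911233 in Ts65Dn;Brwd1+/-.

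At the 246 shared sites fold enrichment was close to equal in both genotypes. Sites without a peak in both lists are left out here, so that this likeness is in part set by the choice of sites. The median ratio of Ts65Dn;Brwd1+/- to Ts65Dn was 1.07 (95% interval of the median from order statistics 1.05 to 1.13, over sites), with quartiles of 0.941 and 1.22 and a range of 0.488 to 2.32. The value was higher in Ts65Dn;Brwd1+/- at 156 sites (63.4%). At 15 sites (6.1%) it was at least 1.5 times higher in Ts65Dn;Brwd1+/-, and at 11 sites (4.47%) at least 1.5 times lower. Across the 246 sites, Pearson's r of the log2 values was 0.90 and Spearman's rho 0.86, given as a description since all points of a genotype come from the same combined libraries. At the 145 sites with q under 0.05 in both lists the median ratio was 1.04. By region, the median ratio was 1.12 at 82 intergenic sites, 1.04 at 71 gene-body sites, and 1.07, 1.13 and 1.05 at 28 proximal-promoter, 34 Promoter1k and 28 Promoter3k sites, the annotation's 3 promoter classes by increasing distance from the start. The list-wide scale of fold enrichment depends on how each genotype's libraries were scaled, which was not tested.

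**Figure D2:**
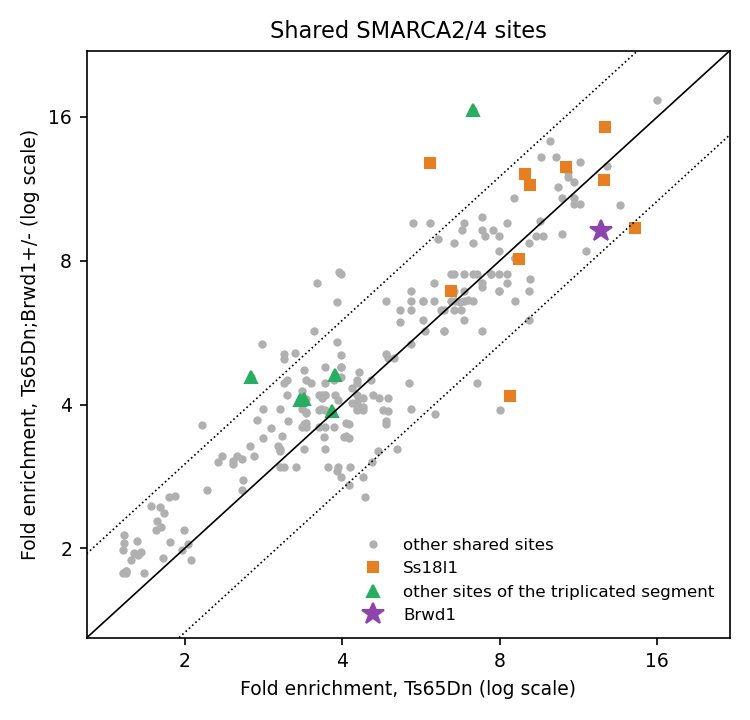
Fold enrichment at each of the 246 shared sites in Ts65Dn (horizontal, log axis) and Ts65Dn;Brwd1+/- (vertical, log axis). The solid line marks equality and the dotted lines 1.5-fold differences, squares are Ss18l1 sites, triangles sites in the triplicated segment and the star Brwd1. Outside the dotted lines lie 15 sites above and 11 below.

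The sites with the highest fold enrichment in both lists were 6 intergenic sites, 3 exons of Ss18l1 and the Gm14897 site. All 10 were also peaks in euploid hippocampus. The chromosome 6 site shown above had a fold enrichment of 15.9 in Ts65Dn, 17.4 in Ts65Dn;Brwd1+/- and 12.9 in euploid mice. At the Gm14897 site the values were 11.4, 12.9 and 11.1. The other 5 intergenic sites lay on chromosomes 1, 2, 8, 13 and 18, with 10.8 to 12.8 in Ts65Dn and 10.8 to 12.6 in Ts65Dn;Brwd1+/-. Sites were taken by the lower of their values, which leaves out sites that are high in 1 list only, so their likeness is part of the choice.

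Among the 10 shared promoter sites with the highest values, those at protein-coding genes included Ybx1, which encodes a cold-shock domain protein that binds RNA and DNA, Pfn1, which encodes the actin-binding protein profilin, and Yars, a tyrosyl-tRNA synthetase. At Ybx1 (chr4:119294324-119294480, proximal promoter and first exon) fold enrichment was 11.7 in Ts65Dn, 8.40 in Ts65Dn;Brwd1+/- and 4.77 in euploid mice. At Pfn1 it was 9.14, 7.33 and 4.31. Yars had 7.97, 7.50 and 5.53. The olfactory receptor gene Olfr401 had 10.3 in Ts65Dn and 11.4 in Ts65Dn;Brwd1+/-. The remaining sites were at Brwd1, described below with its segment, Platr25, Gm22780, Gm12004 and Gm14897 again, with 6.83 to 9.11 and 6.60 to 6.90 outside Brwd1.

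The shared sites with the lowest ratios were led by Tbkbp1, which encodes a TBK1-binding adaptor. Its gene-body peak had a fold enrichment of 8.00 in Ts65Dn and 3.90 in Ts65Dn;Brwd1+/- (ratio 0.488), where its q-value was 0.0786. Exon 2 of Ss18l1 had a ratio of 0.498. Kctd17 had 6.01 and 3.82 (0.635). An intergenic site on chromosome 2 had a ratio of 0.615. The highest ratios were at an intergenic site on chromosome 17 (chr17:4626279-4626583, 7.13 in Ts65Dn and 16.5 in Ts65Dn;Brwd1+/-, ratio 2.32) and at exon 5 of Ss18l1 (2.18), followed by intergenic sites on chromosomes 4, 6 and 8 with ratios of 2.01, 1.92 and 1.90. The chromosome 17 site lies in the triplicated segment, and its euploid value was 14.6, between those of the trisomic genotypes.

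Ss18l1, the gene of the neuronal BAF subunit CREST, had more shared peaks than any other protein-coding gene. The gene spans chr2:180042509-180070201 on the plus strand, with 11 exons in its longest transcript. In Ts65Dn, in Ts65Dn;Brwd1+/- and in euploid mice there was 1 peak on each of exons 1 to 10, and exon 11, at 2870 bases the longest, had none. From exon 1 to exon 10 the Ts65Dn fold enrichments were 6.45, 8.35, 12.6, 12.7, 5.89, 8.92, 10.7, 9.14, 14.5 and 8.70. Those of Ts65Dn;Brwd1+/- were 6.90, 4.16, 11.8, 15.2, 12.8, 12.1, 12.6, 11.5, 9.35 and 8.08. Exons 1 and 4 to 8 were higher in Ts65Dn;Brwd1+/- and exons 2, 3, 9 and 10 higher in Ts65Dn. The median over the 10 exons was 9.03 in Ts65Dn and 11.7 in Ts65Dn;Brwd1+/-.

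The Ss18l1 peaks followed the exon borders. On exons 2 to 10 each peak edge lay between 38 bases before and 45 bases after the border of its exon, over all genotypes. Neither trisomic list had a peak in an intron of the gene, and the euploid list had 2, in the first intron, with 3.51 and 3.95. The only other genes with peaks on 3 or more exons were Gm10717 and Sfi1, in repeat-rich stretches described below, and Gm21738 on chromosome 14. Euploid mice had the same exon-bounded peaks. The part of spliced sequence, such as cDNA, in the Ss18l1 values was not tested, also where the gene is counted among the BAF subunits.

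**Figure D3:**
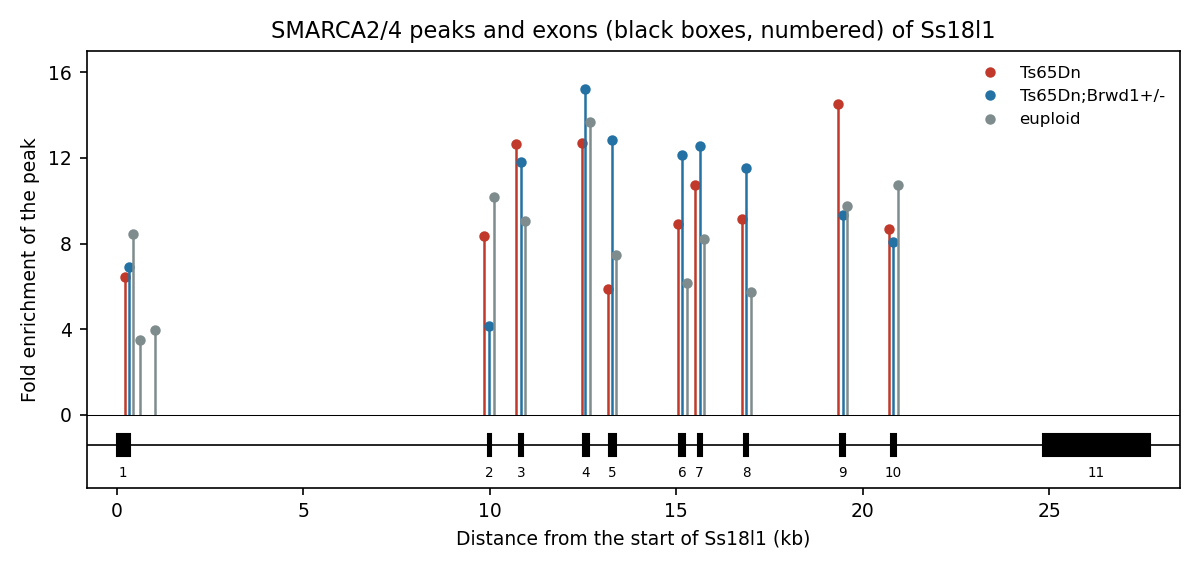
Fold enrichment (vertical axis) of every SMARCA2/4 peak in Ss18l1 against its distance from the start of the gene in kb (horizontal axis), in Ts65Dn, Ts65Dn;Brwd1+/- and euploid mice, with the points of the genotypes moved apart by 0.12 kb to be seen. The exons are drawn as boxes along the bottom. Each genotype has 1 point at each of exons 1 to 10 and none at exon 11, and the euploid points include 2 more in the first intron.

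Among the 28 BAF subunit genes listed, 5 had a peak in Ts65Dn (17.9%) and 5 in Ts65Dn;Brwd1+/-, beside 710 (3.23%) and 812 (3.7%) of all 21951 protein-coding genes. Genes with a peak in both lists numbered 266 (1.21%), of which 111 had a shared site and 155 only private peaks. They were 37.5% of the Ts65Dn genes and 32.8% of the Ts65Dn;Brwd1+/- genes. Of the BAF genes, Ss18l1 and Arid1b had peaks in both. Arid1b, which encodes a core subunit mutated in Coffin-Siris syndrome, had Ts65Dn peaks of 3.70 and 3.00 and a Ts65Dn;Brwd1+/- peak of 3.69 at other positions. Arid1a (3.99 and 3.70), Dpf1 (3.99) and Bcl11a (2.83) had a peak in Ts65Dn, and Smarcd1 (4.20), Bcl11b (3.90) and Smarcd3 (3.52) in Ts65Dn;Brwd1+/-. At q under 0.05 Ss18l1 was left in Ts65Dn (3.57% of the list), and Ss18l1 and Smarcd1 in Ts65Dn;Brwd1+/- (7.14%). Of all protein-coding genes, 204 (0.929%) and 448 (2.04%) were left. Euploid mice had a peak at 19 of the 28 (67.9%), beside 29.3% of all protein-coding genes.

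Lists of neuronal genes were read beside the 3.23% and 3.7% of all protein-coding genes. Of 25 glutamate receptor genes, 7 had a peak in Ts65Dn (28%, 14.3 to 47.6) and 5 in Ts65Dn;Brwd1+/- (20%, 8.86 to 39.1), with Gria1, Grik3 and Grik5 in both. Grik3, a kainate receptor subunit, had a shared gene-body site with 3.25 in Ts65Dn and 5.14 in Ts65Dn;Brwd1+/-. Of 33 genes of the postsynaptic density and synaptic adhesion, 5 had a peak in Ts65Dn (15.2%, 6.65 to 30.9), and all of these, Camk2b, Dlg2, Nrxn3 and Shank1 among them, were among the 9 of Ts65Dn;Brwd1+/- (27.3%, 15.1 to 44.2). Nrxn3, a presynaptic adhesion protein, had a shared intronic site with 9.54 in Ts65Dn and 9.68 in Ts65Dn;Brwd1+/-. Camk2b, a subunit of the calcium/calmodulin-dependent kinase, had a shared proximal-promoter site, with up to 5.03 and 5.00. The median gene length was 319 kb for glutamate receptors and 107 kb for the postsynaptic list, against 17.4 kb for all protein-coding genes, and the part of length in these counts was not tested. Of 30 voltage-gated channel genes, 5 had a peak in Ts65Dn (16.7%, 7.34 to 33.6) and 2 in Ts65Dn;Brwd1+/- (6.67%, 1.85 to 21.3, which holds the share of all genes), with the sodium channel gene Scn8a in both. Of 18 genes of GABA signalling, 0 and 2 did, the receptor genes Gabbr1 (3.13) and Gabrb1 (3.14). At q under 0.05 these counts were 1 and 2 for glutamate receptors, 2 and 7 for the postsynaptic list, 0 and 1 for channels and 0 and 0 for GABA signalling, beside 204 (0.929%) and 448 (2.04%) of all protein-coding genes.

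Activity-regulated genes, induced by neuronal firing, are short, with a median length of 5.29 kb. Of 24, 3 had a peak in Ts65Dn and 7 in Ts65Dn;Brwd1+/- (12.5%, 4.34 to 31.0, against 29.2%, 14.9 to 49.2), beside 3.23% and 3.7% of all genes, and the intervals overlap. Btg2, an antiproliferative factor, had 4.90 in Ts65Dn and 5.01 in Ts65Dn;Brwd1+/- at different positions of its promoter. Nr4a2, a nuclear receptor, was the only one with a shared site, with 3.10 and 2.96. Its relative Nr4a3 had a peak in Ts65Dn (3.87). Peaks private to Ts65Dn;Brwd1+/- were at the transcription factor genes Egr1 (4.498), Fosl2 (4.33) and Atf3 (3.90), at the phosphatase gene Dusp6 (3.90) and at Arc (3.66), which encodes a regulator of AMPA receptor endocytosis. At q under 0.05, 1 and 3 of the 24 were left, beside 0.929% and 2.04% of all protein-coding genes.

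Of 30 transcription factor genes of hippocampal neurons, 6 had a peak in each list and 5 of them, Mef2d, Nfia, Nfix, Tcf4 and Zbtb20, in both. Nfix had 5 peaks in Ts65Dn (3.13 to 4.90) and 6 in Ts65Dn;Brwd1+/- (2.96 to 4.498), with no overlap. Tcf4 had 3 peaks in Ts65Dn and 8 in Ts65Dn;Brwd1+/-, again with none shared. Of 33 axon guidance genes, 5 and 4 had a peak, with the semaphorin receptor gene Nrp1 and Slit1 in both. Histone acetylation and methylation enzymes had 5 and 4 of 38, with Hdac7 and Kdm6b in both, and at the shared Hdac7 site the value was 3.10 in Ts65Dn and 4.97 in Ts65Dn;Brwd1+/-. Other chromatin remodellers had 3 of 24 in each list without a common member: Bptf, Chd3 and Chd4 in Ts65Dn, and Chd5, Chd7 and Chd9 in Ts65Dn;Brwd1+/-. Of all genes with a peak in a list, 37.5% for Ts65Dn and 32.8% for Ts65Dn;Brwd1+/- had one in the other list too, so that none of 3 is little to go by. At q under 0.05 there were 0 and 1 of the 24. Synaptic vesicle release genes had 2 and 3 of 28, with Slc17a7, the vesicular glutamate transporter of hippocampal neurons, in both. These counts stand beside 3.23% and 3.7% of all protein-coding genes. At q under 0.05 they were 2 and 3 for transcription factors, 2 and 1 for axon guidance, 1 and 3 for histone enzymes and 0 and 2 for vesicle release, beside 0.929% and 2.04%.

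Markers of other hippocampal cells were read beside the 3.23% and 3.7% of all protein-coding genes, in lists too short to set apart from them. Of 12 astrocyte markers, 2 had a peak in Ts65Dn (Slc1a2, Slc1a3) and 1 in Ts65Dn;Brwd1+/- (Slc1a2), which is 16.7% and 8.33%. Of 12 oligodendrocyte lineage markers, Mbp had a shared site and Cspg4 a peak private to Ts65Dn;Brwd1+/-, which is 8.33% and 16.7%. None of 12 microglia and 12 endothelial markers had a peak in either list. Zinc finger genes had 7 and 13 of 394, below or near the share of all genes. Of the 98 genes whose symbols begin with Rpl or Rps, 4 and 1 had a peak, and of these only Rps10 and Rps21, both in Ts65Dn, encode ribosomal proteins. Of 67 histone genes, Hist1h3a had a peak in Ts65Dn;Brwd1+/-.

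**Figure D4:**
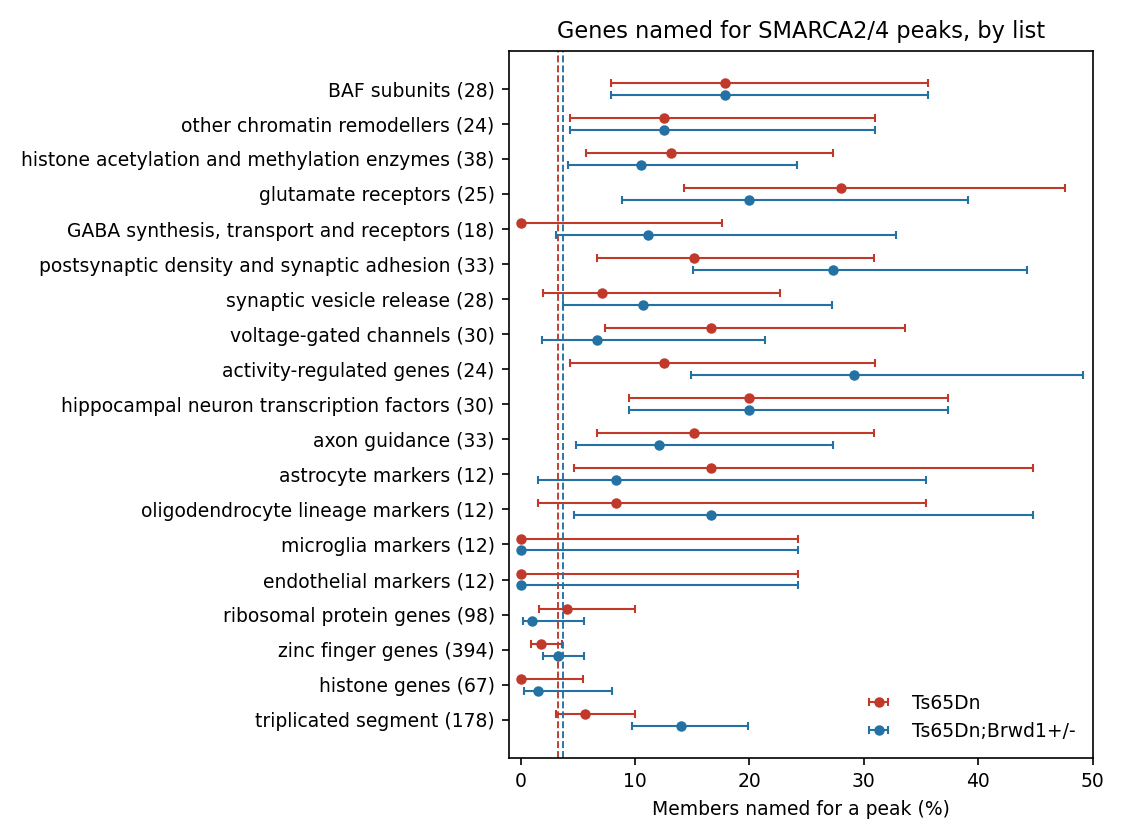
Percent of each gene list (horizontal axis) named for a SMARCA2/4 peak in Ts65Dn and in Ts65Dn;Brwd1+/-. Error bars are Wilson 95% intervals and dashed lines the shares over all protein-coding genes, 3.23% and 3.7%. The numbers in brackets are the members of each list, counted by symbol, and the intervals of both genotypes overlap for every list.

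The triplicated segment held more peaks in Ts65Dn;Brwd1+/-. It was taken as chr16:84717576-98207768, from Mrpl39 to the distal end, and chr17:1-8986648, from the start to Pde10a, 22.5 Mb in all. Ts65Dn had 26 peaks there (2.08% of its list, 1.42 to 3.03) and the other list 51 (3.07%, 2.35 to 4.02). Per Mb this was 1.16 against 0.469 elsewhere in Ts65Dn, 2.27 against 0.616 in Ts65Dn;Brwd1+/-, and 11.1 against 8.56 in euploid mice, which have no additional copy. Outside the first 3.2 Mb of chromosome 17, 5 of 24 peaks in Ts65Dn, 24 of 49 in Ts65Dn;Brwd1+/- and 112 of 246 in euploid mice were at a promoter. Over the whole lists promoters held 48.7% of Ts65Dn and 53% of Ts65Dn;Brwd1+/- peaks, so that the share in the segment was near that of its list in Ts65Dn;Brwd1+/- and below it in Ts65Dn. Of 180 protein-coding genes in the segment, 10 had a peak in Ts65Dn (5.56%, 3.05 to 9.92) and 25 in Ts65Dn;Brwd1+/- (13.9%, 9.59 to 19.7), beside 3.22% and 3.61% of genes elsewhere. At q under 0.05 these were 3 and 15, beside 204 (0.929%) and 448 (2.04%) of all protein-coding genes. Both genotypes carry the same number of copies of the segment apart from the mutant Brwd1 allele.

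Brwd1 itself had 1 peak in each trisomic list, at a position that was also a peak in euploid mice, where a weaker promoter peak was called as well (3.97). The common peak covered an internal coding exon (exon 96059582-96059652 of the minus-strand gene chr16:95992092-96082526), annotated as Promoter3k, with a short transcript of the gene beginning nearby. Fold enrichment was 12.5 in Ts65Dn, 9.21 in Ts65Dn;Brwd1+/- and 20.4 in euploid mice, a ratio of 0.736. The value was highest in euploid mice and lowest in Ts65Dn;Brwd1+/-, and its relation to Brwd1 copies was not tested. Both ends of the peak, at chr16:96059485-96059652, lay inside the binding sites of the primer pair that the study's methods list for genotyping the repro5 allele, so that the peak coincided with the genotyped stretch. The part of amplified genotyping product in the value was not tested, and the fold enrichment at Brwd1 is given as measured only. The sequence is printed to show those ends, with the exon in capitals.
Brwd1, chr16:96059485-96059652: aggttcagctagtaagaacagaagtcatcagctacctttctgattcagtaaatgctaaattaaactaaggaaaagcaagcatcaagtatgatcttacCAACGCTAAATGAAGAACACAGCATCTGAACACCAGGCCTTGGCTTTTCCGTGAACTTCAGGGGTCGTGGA

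Elsewhere in the segment 6 sites were shared. They lay at the potassium channel gene Kcnj6 (3.39 in Ts65Dn, 4.10 in Ts65Dn;Brwd1+/-), at Pde10a, the phosphodiesterase of striatal neurons (3.32 and 4.09), at Pisd-ps2 (3.87 and 4.62), and at intergenic sites on chromosome 16 (2.68 and 4.56, and 3.83 and 3.88) and chromosome 17 (7.13 and 16.5). All 6 were higher in Ts65Dn;Brwd1+/-, and with Brwd1 the median ratio of the 7 sites was 1.21, beside 1.07 at the 239 sites outside the segment. Arid1b, B3galt5, Scaf8 and Tiam1 had peaks in both lists at different positions. Tiam1, a Rac exchange factor of dendritic spines, had 1 peak in Ts65Dn (3.40) and 4 in Ts65Dn;Brwd1+/- (3.19 to 4.79). Scaf8 had 4.55 and 3.42, and B3galt5 had 2.82 and 3.51.

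Genes of the segment with a peak in Ts65Dn and none in the other list were App, the amyloid precursor protein gene (4.21 and 2.65), Mrps6 (3.70) and the cell adhesion gene Dscam (3.199). Of these peaks, only that of App with 4.21 had a q-value under 0.05. Genes with a peak in Ts65Dn;Brwd1+/- and none in Ts65Dn numbered 18. Over all protein-coding genes 444 had a peak in Ts65Dn alone and 546 in the other list alone, of 710 and 812 with a peak. Dynlt1b, a dynein light chain, had 4.94, and Tulp4 had 4.66 and 4.56. Rsph3a had 4.498, T2 had 4 peaks of 2.90 to 4.17, Pigp had 4.12 and the metalloprotease gene Adamts1 had 4.10. 4932438H23Rik (3.88), Son, an RNA-splicing cofactor (3.66), Cldn14 (3.65), the calcineurin inhibitor gene Rcan1 (3.56), Rps6ka2 (3.53) and Cbr1 (3.45) followed. Prr18 (3.19), the transcription factor gene Ets2 (3.09), Hunk (2.90), Tiam2 (2.90), Zdhhc14 (2.83) and Lca5l (2.72), like Son and Rcan1, each had q-values above 0.05.

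Shared and private peaks lay in different parts of the genome. Promoter classes held 51.3% of Ts65Dn-private (48.2 to 54.4) and 55.8% of Ts65Dn;Brwd1+/- private peaks (53.2 to 58.4), but 38.7% and 37.2% of the shared peaks of the same lists. Intergenic positions held 16.3% and 17.6% of private but 32.0% and 31.6% of shared peaks. Gene bodies held 32.4% of Ts65Dn-private and 26.3% of Ts65Dn;Brwd1+/- private peaks. Proximal promoters were 16.6% of Ts65Dn-private and 19.8% of Ts65Dn;Brwd1+/- private peaks. The euploid list, with 22609 peaks, had 60.2% at promoters and 12.6% in intergenic positions, and in both private peaks were nearer to it than shared ones. Gene bodies held 27.2% of euploid peaks. There the shared peaks were nearer in Ts65Dn and the private peaks in Ts65Dn;Brwd1+/-.

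**Figure D5:**
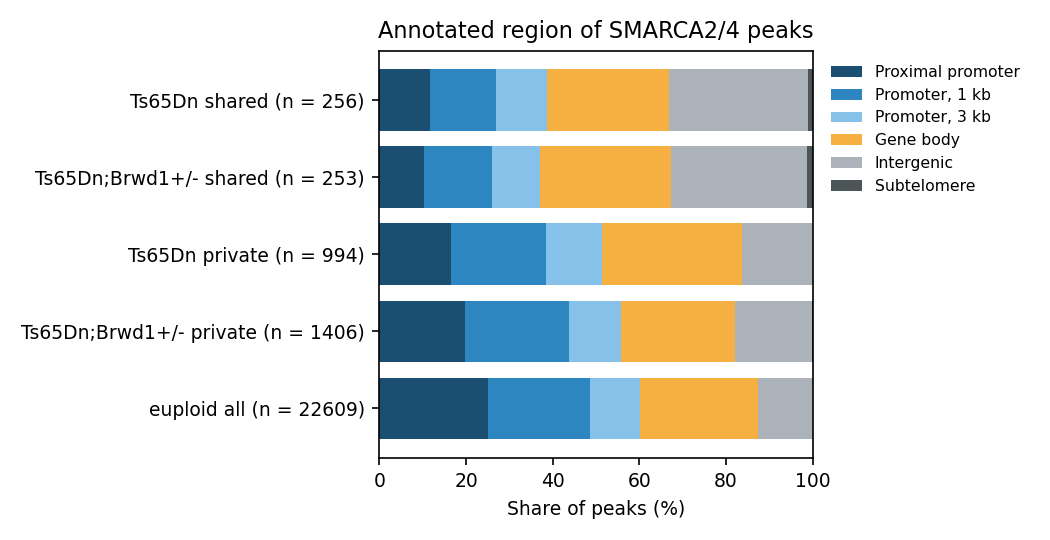
Percent of peaks (horizontal axis, stacked to 100) in each annotated region, 1 bar each for shared and private peaks of Ts65Dn and Ts65Dn;Brwd1+/- and for the euploid list. Intergenic positions took 32.0% and 31.6% of shared peaks but 16.3% and 17.6% of private peaks.

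Peaks of high fold enrichment were more often intergenic, more often repeat and less often in neuronal open chromatin than weaker ones. Of the peaks with a fold enrichment of 6 or more, 46.1% in Ts65Dn and 56.6% in Ts65Dn;Brwd1+/- were intergenic, and 68.5% and 73.6% had more than 50% of the 300 bases around their centre marked as repeat. Neuronal ATAC peaks of the same genotype covered 5 of the 89 and 3 of the 106. Of peaks under 6, promoters held 51.2% and 55.7%, ATAC peaks covered 41.3% and 43.6%, and 7.67% and 11.1% were mostly repeat. Over all fold enrichments, ATAC peaks of the same genotype covered 41.02% of shared and 38.2% of private Ts65Dn peaks, and 38.7% and 41.4% in Ts65Dn;Brwd1+/-. With q under 0.05 in both lists they covered 23.97% of shared and 38.8% of private Ts65Dn peaks, and 19.7% and 44.7% in the other list, so that the difference appeared among the significant peaks. The direction depended on the region. Among intergenic peaks they covered 15 of 82 shared (18.3%) against 35.8% of private Ts65Dn peaks, and 16 of 80 against 43.1% in the other list. At proximal promoters it was the reverse in Ts65Dn, with 26 of 30 shared (86.7%) against 57.0% of private peaks, and 61.5% against 56.6% in the other list. In the Promoter1k class the shares were 69.2% against 34.6%, and 65% against 37.0%. In gene bodies they were 31.9% against 36.3%, and 38.2% against 40%.

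Euploid peaks overlapped 78.9% of the shared Ts65Dn peaks and 77.5% of the shared Ts65Dn;Brwd1+/- peaks. They overlapped 39.9% (397) of Ts65Dn-private and 44.1% (620) of Ts65Dn;Brwd1+/- private peaks. Seen from the euploid list, 2.59% of its peaks met a Ts65Dn peak and 3.61% a Ts65Dn;Brwd1+/- peak. At gene level 89.9% of Ts65Dn genes and 90.3% of Ts65Dn;Brwd1+/- genes also had a euploid peak. The euploid list is many times longer than either, and the part of that length in these shares was not tested.

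The private peaks with the lowest q-values differed in kind. In Ts65Dn they included Tubb5, a beta-tubulin gene (6.09), Postn, which encodes the matrix protein periostin (6.27), Mum1 (5.98), 2010300C02Rik (5.98), Gm3116 (6.83), Gm10721 (5.38) and 4 intergenic peaks, and 4 of the 10 overlapped a euploid peak. In Ts65Dn;Brwd1+/- 8 of the 10 lay in the first 3.2 Mb of chromosome 9, at Gm10717, Gm11168, Gm10719 and Gm10715, with 3.21 to 5.14. The others were at Gm42418 on chromosome 17 (3.34) and at Gm45063 on chromosome 6 (9.30), which alone overlapped a euploid peak (7.79). Outside the repeat-rich stretches, a view chosen after these values were seen, the Ts65Dn-private peaks at protein-coding genes with the lowest q-values went on with Aven, an apoptosis inhibitor (5.70), and Vim, the intermediate filament gene vimentin (5.00 and 5.13). Those of Ts65Dn;Brwd1+/- were at E030030I06Rik (3.18), Cdk8, the Mediator kinase (3.12), Fbxw4 (3.11), 2210408I21Rik (3.71), the chloride channel gene Ano2 (6.503), Mdga2 (3.03) and Apool (3.92), beside several peaks of Gm21738.

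Repeat-rich stretches took more of the Ts65Dn;Brwd1+/- list. The first 3.2 Mb of the chromosomes, next to the centromeres, held 91 of its peaks (5.49%, 4.49 to 6.69), 16 of the Ts65Dn peaks (1.28%, 0.789 to 2.07) and 30 euploid peaks (0.133%). On chromosome 9 alone these were 42, 7 and 13. A locus on chromosome 17 around Gm42418 held 17, 5 and 17. A word of 16 bases, AGAAAACTGAAAATCA, chosen after the data were seen as the most frequent in Ts65Dn;Brwd1+/- private peaks, stood in 44 of them (3.13%), in 1 Ts65Dn-private peak and in 0.00193% of all 300-base windows of the genome. It was also in 16 shared Ts65Dn peaks (6.25%) and 11 shared Ts65Dn;Brwd1+/- peaks (4.35%). Sfi1 had 27 peaks in Ts65Dn;Brwd1+/- and 3 in Ts65Dn, and Gm10717 had 14 and 1. Gm21738, on chromosome 14 and outside these stretches, had 16 and 6. Uniquely mapped reads were kept upstream, but near-identical copies leave such positions uncertain. Without these stretches 19.4% of the Ts65Dn and 15.2% of the Ts65Dn;Brwd1+/- peaks were shared and the median ratio was 1.05, so that these values moved little.

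The middle 300 bases of shared peaks were lower in GC than those of private peaks, by most at intergenic positions. Median GC content was 46.7% in shared and 53.0% in private Ts65Dn peaks, and 48.3% and 54.7% in Ts65Dn;Brwd1+/-, beside 41.7% for all genome windows, 54.3% for euploid peaks and 52.7% for 32851 RefSeq promoters. At intergenic positions it was 39.2% in shared and 50.7% in private Ts65Dn peaks, and in the Promoter3k class 44.8% and 52.3%. The values were closer in gene bodies (50.5% and 50.3%), at proximal promoters (58.5% and 59.7%) and in the Promoter1k class (56.3% and 55.3%). Windows of more than 50% repeat made up 40.2% of shared and 4.73% of private Ts65Dn peaks, and 37.5% and 11.1% in Ts65Dn;Brwd1+/-.

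Short motifs were searched on both strands as plain letters, and a match is no more than a description. The SP/KLF letters GGGCGG stood in 14.8% of shared and 19.3% of private Ts65Dn peaks, and in 15.0% and 22.9% in Ts65Dn;Brwd1+/-, against 2.86% of genome windows and 35.7% of RefSeq promoters (build GRCm38.p6). The AP-1 letters TGANTCA stood in 14.6% of Ts65Dn-private and 11.2% of Ts65Dn;Brwd1+/- private peaks, in 8.20% and 9.49% of shared peaks, and in 8.84% of genome windows. The NEUROD letters CAGATGG ranged from 6.64% of shared Ts65Dn to 9.32% of Ts65Dn;Brwd1+/- private peaks (genome 5.90%). The CRE letters TGACGTCA were in 6 of 994 (0.604%) and 8 of 1406 (0.569%) private peaks, against 0.163% of genome windows and 1.79% of RefSeq promoters. No shared peak held them, but the Wilson intervals reached 1.48% of 256 and 1.496% of 253, above the private shares. The ETS letters CCGGAAGT were in 8 private peaks and 1 shared peak of each list (genome 0.184%). The NRF1 letters GCGCATGCG were in 3 private peaks of each (genome 0.0444%). Counts this low do not set shared and private peaks apart for these motifs. Repeats of CA were in 7.51% to 9.17% of each class, against 4.44% of genome windows. The SP/KLF carrier with the highest fold enrichment was the Ybx1 peak.

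By chromosome, peaks were densest on chromosome 11, with 1.06 per Mb in Ts65Dn and 1.64 in Ts65Dn;Brwd1+/-, and sparsest on X, with 0.0643 and 0.0760. The X chromosome had 11 Ts65Dn and 13 Ts65Dn;Brwd1+/- peaks, and 10 of the 11 were shared.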

How the data were processed

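SMARCA2/4 ChIP-seq peaks of hippocampus from Ts65Dn, Ts65Dn;Brwd1+/- and euploid males, and neuronal ATAC-seq peaks of both trisomic genotypes, were read as deposited. The authors aligned reads to mm10 with HISAT2, kept unique reads, removed duplicates with SAMtools, called peaks with MACS against input with a window of 300 bp, and annotated them with the diffReps region tool. The lists the authors deposited give a fold enrichment (a ratio) and a q-value for each peak, 1 list per genotype. How replicates were combined was not given in the sources used here. The methods state a filter at a q-value of 0.05, but the deposited lists of both trisomic genotypes hold peaks with q-values up to 1. All were kept, and results at q under 0.05 are given beside them.

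Peaks were read 1-based. Overlapping peaks of both lists formed 1 site, with the highest fold enrichment of each list. Genes came from GENCODE vM21 and sequence from GRCm38.p6, the build of the lists, with repeats as soft-masked there. For Ts65Dn, 1002 of 1003 annotated gene identifiers were found in GENCODE, and 1325 of 1325 for Ts65Dn;Brwd1+/-. Named genes were the 10 shared sites, 10 shared promoter sites and 10 private peaks of each list with the highest fold enrichment or lowest q-value, the 5 highest and 5 lowest ratios, all BAF, BRWD, activity-regulated and segment genes with a peak, and up to 4 genes of each other list. Members and lists were chosen with earlier results of these data known. With 1 list per genotype no test between genotypes, left-out replicate or paired fit could be made. Overlaps were tested on simulated data. Python 3.11.15, pandas 2.3.3, NumPy 2.4.6, SciPy 1.17.1 and matplotlib 3.10.9 were used. Alternatives were other q-value thresholds, overlap rules, list lengths and sets of chromosomes. The RNA-seq of cultures in the same series was not used here, and some genes and sequences named by the rule are not reported here.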

Additional observations from a re-analysis of the deposited data

Results flagged for a closer look

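Peaks on an unplaced contig lay outside the comparison, which kept to chromosomes 1 to 19 and X, and drew notice because they were so unevenly spread over the genotypes. The contig JH584304 held 149 of the 1873 peaks of the whole Ts65Dn;Brwd1+/- list (7.96%, Wilson 95% interval 6.81 to 9.27), 17 of the 1290 Ts65Dn peaks (1.32%) and 27 of the 22667 euploid peaks (0.119%). Of the 149, 120 had a q-value under 0.05, with a median fold enrichment of 2.33 and a highest value of 11.8. The mitochondrial genome held 16, 9 and 18 peaks. The contig excess went the same way as that in the first 3.2 Mb of the chromosomes (5.49% against 1.28%). With 1 list per genotype the difference was not tested, and its cause was not tested.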

How the results depend on the processing

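The shared share of the Ts65Dn list was 20.5% and moved to 36.9% with q under 0.05, 45.5% with q under 0.01, 24% with the same number of peaks from each list, 18.1% with at least 50% of the shorter peak overlapped, and 32.2% with peaks within 1000 bp counted as shared. That of the Ts65Dn;Brwd1+/- list was 15.3% and moved under the last 4 of these to 19.6%, 23.8%, 13.2% and 27.8%. The median ratio of 1.07 moved to 1.04 with q under 0.05. The Ts65Dn share stayed the higher one under each, by little where equal numbers of peaks were taken. Merging neighbouring peaks (19.9%, 16.1%, 1.07), taking all chromosomes (22.5%, 15.2%, 1.097), leaving out the triplicated segment (20.3%, 15.3%, 1.07) and leaving out the repeat-rich stretches, chosen after seeing the data (19.4%, 15.2%, 1.05), left the values within their 95% intervals. Of the other alternatives, on regions, euploid and ATAC overlap, gene lists and sequence, 46 values left their 95% intervals and 78 did not. No paired analysis was possible because each genotype has 1 combined list. For the same reason no replicate could be left out. The lists give no read depth, so how depth limits the private counts is unknown.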

Other observations

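Seen from open chromatin, few neuronal ATAC peaks held a SMARCA2/4 peak. Of the 29152 Ts65Dn ATAC peaks, 455 (1.56%) overlapped a Ts65Dn SMARCA2/4 peak, and of the 30207 Ts65Dn;Brwd1+/- ATAC peaks 620 (2.05%) overlapped a Ts65Dn;Brwd1+/- one. The ATAC list of the other genotype gave 669 (2.29%) of the Ts65Dn ATAC peaks for the Ts65Dn;Brwd1+/- SMARCA2/4 list and 446 (1.48%) of the Ts65Dn;Brwd1+/- ATAC peaks for the Ts65Dn list.

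Some genes with 4 or more peaks in a list, chosen after the values were seen, differed in number between the lists. Such genes numbered 7 of the 710 with a peak in Ts65Dn and 20 of the 812 in Ts65Dn;Brwd1+/-, the longer list. Zbtb16 had 5 peaks in Ts65Dn;Brwd1+/- and 2 in Ts65Dn, and Tnrc18 had 6 with none in Ts65Dn. Shank1, a scaffold of the postsynaptic density, had 4 and 1. The gene Gse1 went the other way with 2 and 4. These counts are of peaks of 1 list per genotype, and no test of the differences was made.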
